A study of Mus musculus with 20 samples.

Results

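Alpha and beta tubulin form the heterodimers from which microtubules are built, and mammals encode each in several genes. Katnal2 is a katanin-like protein whose relatives sever microtubules, although the study states that direct severing by Katnal2 itself has not been observed. The mRNA of 10 tubulin isotypes was examined with age and without Katnal2, in whole-brain RNA-Seq of male C57BL/6J mice. The isotypes were chosen by name, with earlier results of these data known. They comprise 3 alpha genes (Tuba1a, Tuba1b and Tuba4a) and 7 beta genes (Tubb2a, Tubb2b, Tubb3, Tubb4a, Tubb4b, Tubb5 and Tubb6), and all 10 were among the 19463 genes of the table. Mice were WT or Katnal2-KO. Brains were taken at an age of 3 weeks (P21) or 10 weeks (P70). Each of the 4 groups held 5 mice, for a total of 20. The KO line came from the EUCOMM tm1a allele, in which mating with Protamine-Flp mice left a floxed Katnal2 gene and the cell-permeable Cre HTNC then removed a frame-shifting exon in early embryos, so that the deletion was carried by every cell. The line was backcrossed to C57BL/6J for several generations, and the labels give no litter, extraction day or sequencing run, so that age and run cannot be told apart.

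The isotypes have nearly the same globular body and differ most in the short carboxy-terminal tail that projects from the microtubule. The tail is rich in glutamate, to which enzymes add further glutamates, and motors and severing enzymes read it. Tuba1a is the main alpha isotype of developing neurons, and Tubb2a, Tubb2b and Tubb3 are abundant in neurons. Tubb4a is found in neurons and in myelinating oligodendrocytes. Tuba1b, Tubb4b and Tubb5 are widely expressed, Tuba4a is expressed in many adult tissues, and Tubb6 is a minor isotype of the brain. Tubulin mRNA is also destabilised when free tubulin accumulates, by a pathway that reads the first residues of the nascent chain through Ttc5.

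Tubb2a and Tubb2b form a near-identical pair, both lower at P70, and Tubb3 and Tubb4a show how far the beta tails diverge. The last 60 coding bases before the stop codon are therefore shown for these 4 beta isotypes. They were read 5′ to 3′ on the coding strand from the GRCm38 genome with the GENCODE M21 annotation, and glutamate codons (GAA or GAG) are in capitals.
Tubb2a (chr13:34074471-34074530, minus strand): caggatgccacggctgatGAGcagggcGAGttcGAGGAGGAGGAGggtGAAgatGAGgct
Tubb2b (chr13:34127474-34127533, minus strand): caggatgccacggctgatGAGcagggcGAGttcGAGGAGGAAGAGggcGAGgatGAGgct
Tubb3 (chr8:123421620-123421679, plus strand): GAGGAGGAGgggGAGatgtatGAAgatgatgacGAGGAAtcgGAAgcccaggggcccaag
Tubb4a (chr17:57080693-57080752, minus strand): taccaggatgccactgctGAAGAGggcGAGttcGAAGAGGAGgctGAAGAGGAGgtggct

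These stretches held 8 or 9 glutamate codons in the isotypes shown, and 8 and 10 in Tuba4a and Tubb4b. Counted from 1 at the 5′ end of the 60 bases, Tubb2a and Tubb2b differed by G42A, T48C and A51G, each at the third base of a codon. Over the whole coding sequence, Tuba1a and Tuba1b were 98.3% identical and Tubb2a and Tubb2b 96.5% identical, whereas other pairs within a family were 80.2% to 86.0% identical. Both pairs are neighbours in the genome. Tuba1a (ENSMUSG00000072235, chr15:98949837-98953703) and Tuba1b (ENSMUSG00000023004, chr15:98931425-98934565) lie 15.3 kb apart on the minus strand. Tubb2a (ENSMUSG00000058672, chr13:34074274-34078007) and Tubb2b (ENSMUSG00000045136, chr13:34126748-34130466) lie 48.7 kb apart on the minus strand.

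This likeness bears on how far the isotypes can be told apart. Of all stretches of 31 bases in its transcript, 77.0% were shared with other genes for Tuba1a and 75.4% for Tuba1b, 56.4% for Tubb2a, 45.9% for Tubb2b and 64.6% for Tubb4b, the last mostly with its pseudogene Tubb4b-ps1. The other 5 isotypes shared 1.87% to 4.43%. For the sharing isotypes, reads were divided between near-identical copies by estimation, and their values are uncertain to that extent. The minor alpha gene Tuba1c shared the most with Tuba1a (54.7%) and Tuba1b (64.5%), and had 64.2 to 119 normalized counts in any mouse.

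The values are normalized read counts, which summed to 27310523 to 28423042 per mouse. From the spacing of the lowest values, the libraries held an estimated 26200000 to 36700000 reads at P21 and 23100000 to 26700000 at P70. At this spacing only 14% to 53.6% of the low values of a mouse lay within 0.05 of a whole read. The estimates are therefore rough, and no difference in depth between ages is read from them. Katnal2 itself had 99.3 to 115 normalized counts in P21 WT mice and 78.1 to 96.0 in P21 KO mice, with no overlap (exact permutation test, two-sided p = 0.00794, a value that cannot be lower in groups of 5). In P70 mice it had 101 to 141 in WT and 95.1 to 125 in KO brains, and the groups overlapped (exact permutation test, two-sided p = 0.0794). A gene-level value does not separate the deleted exon from the rest of the transcript. Markers of neurons, oligodendrocytes, astrocytes and microglia were present in every group, with none of the listed genes at 0. Replicate 5 of P70 KO and replicate 5 of P70 WT stood apart from the other P70 mice. Their root mean square deviation from the group mean over all tested genes was 0.532 and 0.438 on the log2 scale, against 0.302 to 0.329 in the other P70 mice. The differences between ages and between genotypes are therefore also given without both mice.

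To compare isotypes with each other, values were divided by the summed exon length of the gene. Tuba1a had the highest level per kb in every group, with 22970 ± 1790 (SD, n = 5) normalized counts per kb in P21 WT, 21800 ± 1330 in P21 KO, 15380 ± 610 in P70 WT and 15510 ± 1720 in P70 KO mice. At P21 it was followed by Tubb2a and Tubb4a, whose ranges overlapped, and then by Tuba1b and Tubb3. Tubb4b and Tubb5 overlapped below them, and Tuba4a, Tubb2b and Tubb6 followed in that order without overlap between neighbours. Both genotypes had this order at P21. With the longest coding transcript as the length the P21 order of means was the same. In P21 WT mice, however, Tubb4a then overlapped with Tuba1b, and Tubb3 with Tubb4b. At P70 Tubb4a, Tuba1b and Tubb2a overlapped with their neighbours in the places after Tuba1a, so that their order was not resolved, and in KO mice Tuba1a and Tubb4a overlapped as well.

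Tubb6 was the lowest by far, with 55.5 ± 6.25 normalized counts per kb in P21 WT and 60.6 ± 7.56 in P70 WT mice. In KO mice it had 57.1 ± 3.75 at P21 and 65.9 ± 6.83 at P70. Tubb2b, the next isotype above it, had 2045 ± 198 and 1401 ± 88.9 in WT and 2029 ± 249 and 1476 ± 88.7 in KO mice. All 10 isotypes together made up 0.545% to 0.634% of all normalized counts in P21 WT mice and 0.451% to 0.524% in P70 WT mice. The corresponding ranges in KO mice were 0.556% to 0.622% and 0.443% to 0.601%.

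Tuba1a, Tubb2a and Tubb2b were lower at P70 than at P21 in both genotypes, with log2 fold changes of -0.61 to -0.45 and no overlap between ages. In WT mice, limma called these 3 of the 10 isotypes lower and none higher at an adjusted p under 0.05, where 11.1% of all tested genes were called, 5.62% lower and 5.53% higher. In KO mice it called these 3 and Tubb4a lower and none higher, where 11.9% of all tested genes were called, 6.4% lower and 5.47% higher. The 3 isotypes whose ages did not overlap compare with 5.6% of tested genes in WT and 5.51% in KO mice that were lower at P70 in every mouse, out of 10.8% and 10.9% that did not overlap in either direction. The median log2 fold change of the 10 isotypes was -0.17 in WT and -0.14 in KO mice, against 0.00128 and -0.0104 over all tested genes. The brains were assayed whole, so fewer cells of a type and less RNA per cell cannot be told apart.

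Tuba1a, the alpha isotype of growing axons and dendrites, had 38280, 38470, 45020, 44560 and 40770 normalized counts in the P21 WT mice and 28190, 26990, 27040, 26980 and 29480 in the P70 WT mice. In KO mice it had 36960, 40090, 42640, 39880 and 36940 at P21, and 26210, 27740, 26600, 25880 and 33370 at P70. Every P70 mouse lay below every P21 mouse, with P70 KO replicate 5 the nearest to the younger mice. The log2 fold change with age was -0.58 (SE 0.07, adjusted p = 1.32e-05) in WT and -0.50 (SE 0.07, adjusted p = 6.39e-05) in KO mice, a difference of -32.9% (95% confidence interval -39.3% to -25.8%) and -29.1% (-35.9% to -21.6%).

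Tubb2a is a major beta isotype of neurons. It had 20450, 21290, 23830, 24460 and 21490 normalized counts in P21 WT and 14050, 14000, 13740, 14840 and 16370 in P70 WT mice. In KO mice it had 19730, 22160, 22910, 21600 and 21040 at P21 and 14080, 13850, 13920, 12940 and 18900 at P70. Ages did not overlap, although P70 KO replicate 5 lay just below the lowest P21 KO mouse. The log2 fold change was -0.61 (SE 0.08, adjusted p = 5.46e-05) in WT and -0.56 (SE 0.08, adjusted p = 0.000138) in KO mice.

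Tubb2b, the neighbour of Tubb2a and a gene needed for neuronal migration, was less abundant but followed the same direction. It had 4379, 4131, 5051, 5221 and 4675 normalized counts in P21 WT and 3505, 3348, 3047, 3128 and 3045 in P70 WT mice. In KO mice it had 4505, 4723, 5536, 4545 and 3959 at P21 and 3195, 3682, 3506, 3301 and 3245 at P70. The ages did not overlap, and the replicate 5 mice at P70 did not stand above the others. The log2 fold change was -0.54 (SE 0.08, adjusted p = 0.000121) in WT and -0.45 (SE 0.08, adjusted p = 0.000657) in KO mice.

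Tubb4a differed in its call between the genotypes. It had 27940, 27100, 30910, 27120 and 27790 normalized counts in P21 WT, and 21890, 22490, 25490, 23270 and 27740 in P70 WT mice. In KO mice it had 28870, 29610, 32030, 29400 and 28600 at P21 and 21160, 22280, 20790, 21820 and 32000 at P70. In both genotypes the ages overlapped through replicate 5 at P70, and the other 4 P70 mice lay below all P21 mice of their genotype. The log2 fold change was -0.22 (SE 0.09, adjusted p = 0.137) in WT and -0.35 (SE 0.09, adjusted p = 0.0179) in KO mice. The interaction of age and genotype was -0.13 (SE 0.13, unadjusted p = 0.357), so a difference between the genotypes was not shown. The call in KO mice was lost without P70 KO replicate 3 (adjusted p = 0.054) and in a fit of the KO mice alone (adjusted p = 0.0656).

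In the fit of all mice without a correction for length and GC content, the remaining isotypes were not called with age in either genotype. Neuron-enriched Tubb3 had a log2 fold change of -0.19 (adjusted p = 0.178) in WT and -0.17 (adjusted p = 0.231) in KO mice. The widely expressed Tubb5 had -0.16 (adjusted p = 0.122) and -0.10 (adjusted p = 0.339), and Tubb4b, an isotype also used in cilia, had -0.11 (adjusted p = 0.423) and -0.12 (adjusted p = 0.396). Tuba1b had -0.06 (adjusted p = 0.753) and 0.01 (adjusted p = 0.976). Tuba4a had -0.06 (adjusted p = 0.555) and -0.01 (adjusted p = 0.929). Tubb6 had 0.12 (adjusted p = 0.526) and 0.20 (adjusted p = 0.257), with 118 to 157 normalized counts in P21 WT and 117 to 165 in P70 WT mice. The plots of values by mouse and of differences between ages show these patterns.

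**Figure D1:**
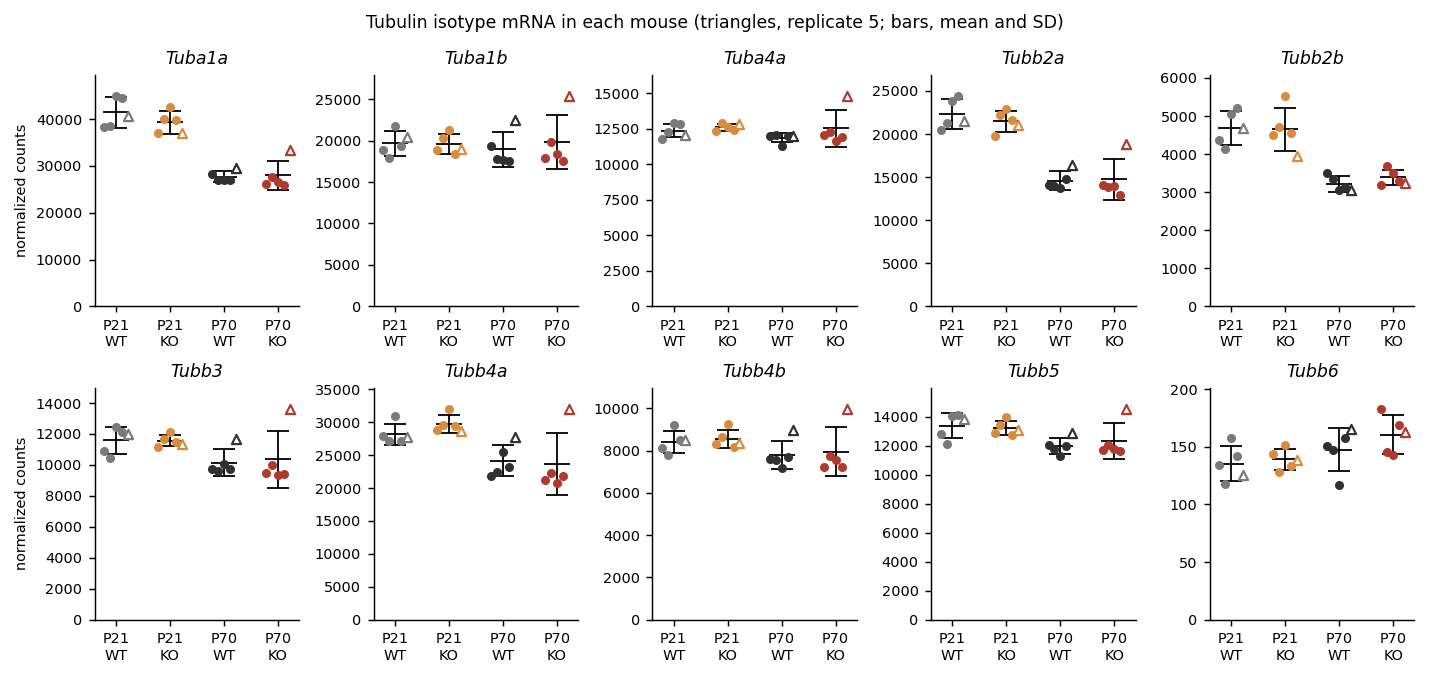
Normalized counts of each isotype (vertical axis, from 0) in every mouse of the 4 groups (horizontal axis). Points are mice, triangles are replicate 5 of each group, and bars give the mean and SD (n = 5). Tuba1a, Tubb2a and Tubb2b show no overlap between ages within a genotype, and the P70 KO triangle is the highest of its group for 8 isotypes.

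**Figure D2:**
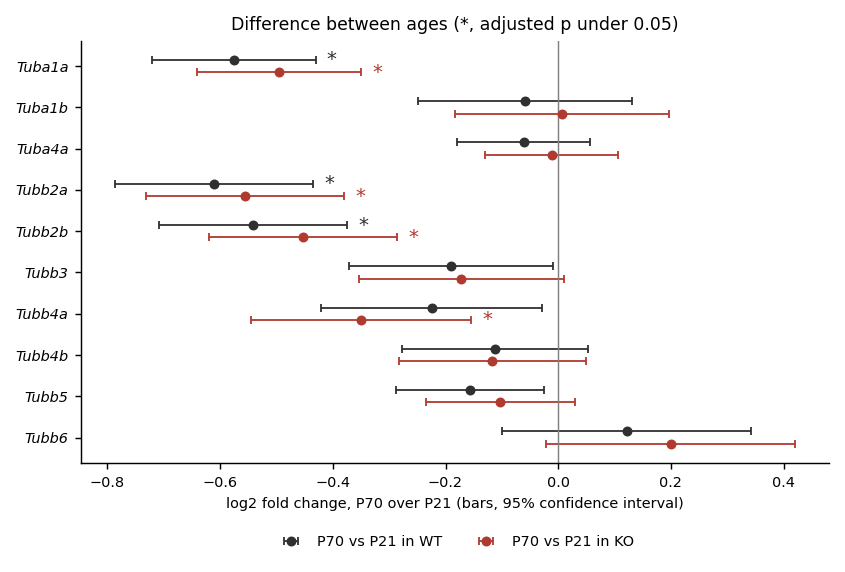
Log2 fold change from P21 to P70 (horizontal axis) for each isotype (vertical axis) in WT (black) and KO mice (red), with 95% confidence intervals from limma over 20 mice. Asterisks mark an adjusted p under 0.05, which 3 isotypes reached in WT and 4 in KO mice.

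The number of isotypes called with age depended on P70 KO replicate 5 and on a correction for length and GC content. P70 KO replicate 5 lay above the mean of the other 4 KO mice by 48.7% for Tubb4a, 42.5% for Tubb3, 38.2% for Tuba1b, 38% for Tubb2a, 34.1% for Tubb4b, 25.4% for Tuba1a, 23.8% for Tuba4a and 23.3% for Tubb5. For Tubb6 it lay 1.81% above, and for Tubb2b the difference was -5.14%. P70 WT replicate 5 lay above the other 4 WT mice by 24.6% for Tuba1b, 19.3% for Tubb3 and for Tubb4b, 19.1% for Tubb4a, 15.6% for Tubb2a, 15.4% for Tubb6, 9.21% for Tubb5, 7.96% for Tuba1a and 1.08% for Tuba4a, and for Tubb2b the difference was -6.51%. Both mice thus had Tubb2b below and most other isotypes above their group.

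Over all tested genes, the deviations of these 2 mice from their group means correlated at 0.705 with each other. They also correlated with the GC content of the exons (Spearman's rho 0.636 in P70 KO replicate 5 and 0.607 in P70 WT replicate 5, over 17623 genes) and with exon length (rho -0.343 and -0.355), whereas rho with GC content was -0.437 to -0.193 in the other P70 mice. The group means include replicate 5, so the deviations of the other mice offset its own. The negative rho of those mice follows in part from this. A rho with exon length of this size was also found in P21 WT replicate 3 (-0.365) and P21 KO replicate 3 (-0.31). The isotypes are shorter and richer in GC than most genes, with 51.2% to 57.9% GC and 1610 to 3701 exon bases against medians of 49.8% and 4071. The part of GC content and length in the values of these mice was not tested gene by gene.

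Without both replicate 5 mice at P70, limma called 7 of the 10 isotypes lower with age in WT mice, where 9.97% of all tested genes were called lower, and 7 in KO mice, where 11.1% were. In both genotypes these were Tuba1a, Tubb2a, Tubb2b, Tubb3, Tubb4a, Tubb4b and Tubb5. Tuba1a then had a log2 fold change of -0.60 (adjusted p = 2.88e-07) in WT and -0.56 (adjusted p = 4.72e-07) in KO mice. Tubb2a had -0.65 in both (adjusted p = 1.16e-07 and 8.52e-08), and Tubb2b had -0.52 (adjusted p = 0.000128) and -0.44 (adjusted p = 0.000607). Tubb4a had a log2 fold change of -0.28 (adjusted p = 0.000548) in WT and -0.46 (adjusted p = 1.97e-06) in KO mice, and Tubb3 had -0.24 (adjusted p = 0.00107) and -0.27 (adjusted p = 0.000295). Tubb5 had -0.18 (adjusted p = 0.0067) and -0.16 (adjusted p = 0.0127), and Tubb4b had -0.16 (adjusted p = 0.0181) and -0.20 (adjusted p = 0.00406). Tuba1b, Tuba4a and Tubb6 were not called in either genotype, with the smallest adjusted p at 0.139 for Tuba1b in WT mice. Without P70 KO replicate 5 alone, 6 isotypes were called in WT mice and 7 in KO mice, where 16% and 14.6% of all tested genes were called in either direction. The WT fold changes do not involve that mouse, which enters the WT calls through the estimate of the spread that all groups share. In fits of only the 10 mice of 1 genotype, 3 isotypes were called in WT and 3 in KO mice. There 9.32% and 8.32% of all tested genes were called in either direction. Without P70 WT replicate 5 alone, 3 and 4 isotypes were called, where 10.9% and 13.9% of all tested genes were called in either direction. With all mice kept and length and GC content corrected for in each mouse, 7 isotypes were called lower in WT mice (9.11% of all tested genes) and 6 in KO mice (10% of all tested genes).

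**Figure D3:**
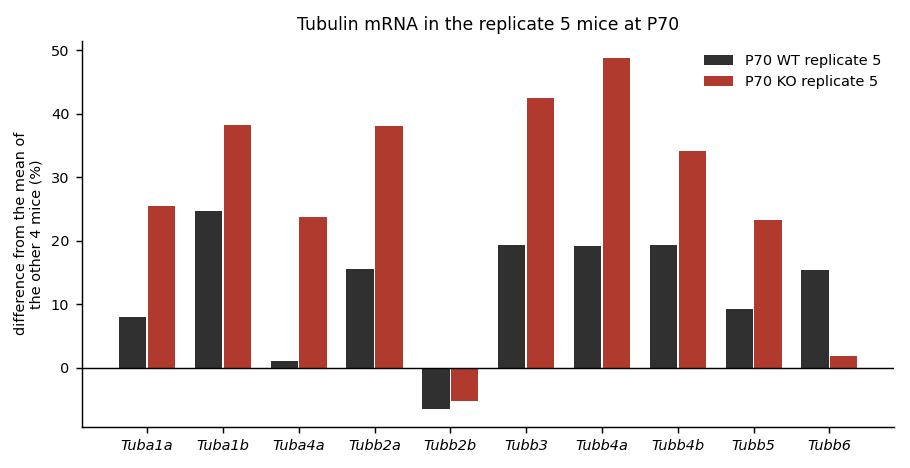
Difference of replicate 5 from the mean of the other 4 mice of its group at P70, in percent (vertical axis), for each isotype (horizontal axis), in WT (black) and KO (red). Tubb2b is below 0 in both mice, and Tubb4a in the KO mouse is the highest bar at 48.7%.

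The composition of the alpha and beta mRNA differed between ages, with Tuba1a and Tubb2a making up less of their family at P70. An isotype's share was taken as its level per kb over the summed level of the alpha or of the beta isotypes of the same mouse, and shares are given as a description with no test. Shares within a family have a fixed sum, so a lower share of 1 isotype raises those of others without a rise in their level. Tuba1a made up 62.4% ± 1.1 (SD, n = 5) of alpha mRNA in P21 WT and 53.7% ± 1.1 in P70 WT mice, and 61.2% ± 1.0 and 52.7% ± 0.86 in KO mice. Tuba1b made up 28.5% ± 1.1 and 35.1% ± 1.7 in WT and 29.3% ± 0.82 and 35.7% ± 1.2 in KO mice, and Tuba4a 9.1% ± 0.37 and 11.2% ± 0.63 in WT and 9.57% ± 0.48 and 11.5% ± 0.39 in KO mice. None of these ranges overlapped between ages within a genotype. The levels of Tuba1b and Tuba4a themselves were not called with age. Without replicate 5 (n = 4), the P70 shares were 54.2% ± 0.44 in WT and 53.1% ± 0.37 in KO mice for Tuba1a, and 34.4% ± 0.6 and 35.3% ± 0.65 for Tuba1b. The ratio of Tuba1a to Tuba1b per kb was 2.08 to 2.39 in P21 WT and 2.03 to 2.26 in P21 KO mice, and 1.36 to 1.6 and 1.36 to 1.54 at P70, the replicate 5 mice included.

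Among the beta isotypes, Tubb2a made up 32.3% ± 1.2 of the summed level in P21 WT and 26.6% ± 0.74 in P70 WT mice, and 31% ± 0.73 and 26.6% ± 0.78 in KO mice. Without replicate 5 its P70 share was 26.6% ± 0.85 (SD, n = 4) in WT and 26.6% ± 0.9 in KO mice. Tubb2b made up 4.77% ± 0.23 and 4.13% ± 0.48 in WT and 4.71% ± 0.39 and 4.38% ± 0.68 in KO mice, with overlap between ages. The share of Tubb4a overlapped between ages, with 27.4% to 30.7% and 30.1% to 34.1% in WT and 30.5% to 31.6% and 29.4% to 32.6% in KO mice. Tubb3 (14.5% ± 0.43 and 15.9% ± 0.28), Tubb4b (9.41% ± 0.19 and 10.9% ± 0.39) and Tubb5 (9.38% ± 0.29 and 10.6% ± 0.46) had higher shares at P70 than at P21 in every WT mouse, and likewise in every KO mouse. Their levels did not rise, with log2 fold changes of -0.19, -0.11 and -0.16 in WT and -0.17, -0.12 and -0.10 in KO mice. Tubb6 was 0.129% ± 0.0084 of the beta level in P21 WT and 0.177% ± 0.02 in P70 WT mice, and 0.133% ± 0.0087 and 0.195% ± 0.034 in KO mice.

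**Figure D4:**
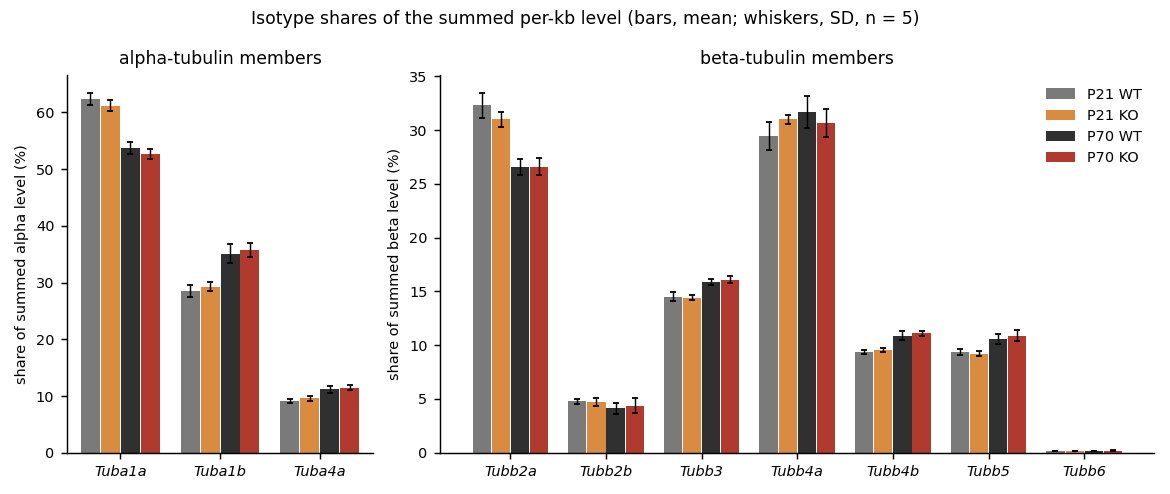
Share of each isotype in the summed level per kb of the 3 alpha (left) or the 7 beta isotypes (right), in percent (vertical axis, from 0), for the 4 groups. Bars are means and whiskers SDs (n = 5). Tuba1a goes from 62.4% to 53.7% and Tubb2a from 32.3% to 26.6% between P21 WT and P70 WT, and the KO bars have the same order.

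Markers of several cell types differed between the ages. Among all tested genes, 5.62% were called lower and 5.53% higher at P70 in WT mice, and 6.4% and 5.47% in KO mice. Of 14 mature oligodendrocyte markers, 11 were lower at P70 in WT and 12 in KO mice, none was higher, and none was at 0 in any mouse. Their summed value was 418400 to 470800 normalized counts in P21 WT and 178800 to 203500 in P70 WT mice, and 417800 to 611200 and 161400 to 212100 in KO mice. Of 10 oligodendrocyte precursor markers, 7 were lower in WT and 8 in KO mice. Their sums were 28290 to 33270 at P21 and 20190 to 22560 at P70 in WT, and 28420 to 34500 and 19260 to 21690 in KO mice. Of 13 immature neuron markers, a list that includes Tubb3 itself, 6 were lower in WT and 7 in KO mice, and their sums were 36530 to 41880 and 31350 to 36670 in WT and 35850 to 41340 and 31910 to 38130 in KO mice. Of 12 general neuron markers, 1 was higher and 2 were lower in WT mice, and 2 were higher and 2 lower in KO mice. Among them were Snap25, of the synaptic fusion machinery (log2 fold change 0.25, adjusted p = 0.000472 in WT, and 0.29, adjusted p = 0.000106 in KO mice), and Stmn2, a protein that binds tubulin dimers (-0.35, adjusted p = 0.000368, and -0.32, adjusted p = 0.000686). The sums of these neuron markers overlapped between ages, at 233300 to 241000 and 230200 to 243900 in WT mice and 226700 to 242000 and 231200 to 241800 in KO mice. All 5 blood markers were lower at P70 in both genotypes, with sums of 24460 to 61280 and 6982 to 9945 in WT and 12040 to 30950 and 7287 to 13110 in KO mice. Of 10 astrocyte markers 1 was higher in each genotype, and of 10 endothelial and mural markers 2 were lower in each. Of 10 choroid plexus markers, 2 were higher in WT and 1 in KO mice. Of 8 proliferating cell markers, 1 was higher and 3 were lower in each genotype. None of 10 microglia or of 10 ependyma markers was called. The part of these cell types in the isotype values was not tested.

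To see whether loss of Katnal2 went with altered tubulin mRNA, KO and WT mice were compared at each age. None of the 10 isotypes was called by limma at P21 or at P70, and all 10 overlapped between genotypes at both ages, where 0% of all tested genes were called and 0.46% (P21) and 0.193% (P70) did not overlap. None had an unadjusted p under 0.05, which 2.44% of tested genes had at P21 and 1.13% at P70. The log2 fold changes were -0.07 to 0.08 at P21 and -0.05 to 0.12 at P70. Exact two-sided permutation tests gave p = 0.151 to 0.937 at P21 and 0.214 to 0.952 at P70.

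At P21, Tuba1a averaged 41420 ± 3230 (SD, n = 5) normalized counts in WT and 39300 ± 2410 in KO mice, a difference of -5.02% with a 95% confidence interval of -13.3% to 4%. Tubb4a averaged 28170 ± 1580 and 29700 ± 1360, a difference of 5.47% (-1.97% to 13.5%), which had the smallest unadjusted p of the isotypes (0.14, limma). Tubb2a differed by -3.54% (-11.6% to 5.29%), Tubb3 by -0.107% (-7.64% to 8.04%) and Tuba4a by 1.9% (-3.87% to 8.01%). Tubb2b differed by -1.01% (-12.8% to 12.3%), and Tubb6 by 3.23% (-10.8% to 19.5%). Tuba1b, Tubb4b and Tubb5 differed by -0.585% (-8.93% to 8.53%), 1.67% (-5.81% to 9.73%) and -1.21% (-8.4% to 6.55%).

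At P70 the intervals were wider for all isotypes but Tubb2b. Tuba1a averaged 27740 ± 1100 in WT and 27960 ± 3100 in KO mice, a difference of 0.4% (95% confidence interval -10.5% to 12.6%). Tubb4a averaged 24170 ± 2410 and 23610 ± 4720, a difference of -3.31% (-19.2% to 15.7%). Tubb2b differed by 5.34% (-5.2% to 17.1%) and had the smallest unadjusted p (0.303, limma), Tubb2a by 0.211% (-13.8% to 16.5%) and Tubb3 by 1.2% (-14% to 19%). Tuba1b and Tuba4a differed by 4.04% (-11.9% to 22.8%) and 5.43% (-5.53% to 17.7%), Tubb4b and Tubb5 by 1.31% (-12.6% to 17.4%) and 2.56% (-8.33% to 14.7%), and Tubb6 by 8.97% (-9.34% to 31%).

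Without both replicate 5 mice, Tubb4a at P70 averaged 23280 ± 1570 (SD, n = 4) in WT and 21510 ± 668 in KO mice. Its log2 fold change was then -0.11 (unadjusted p = 0.0414, adjusted p = 0.999, limma), the only isotype with an unadjusted p under 0.05, which 3.69% of all tested genes then had. The other isotypes then had log2 fold changes between genotypes of -0.04 for Tuba1a, 0.03 for Tuba1b, 0.02 for Tuba4a, -0.05 for Tubb2a, 0.07 for Tubb2b, -0.03 for Tubb3, -0.02 for Tubb4b, 0.00143 for Tubb5 and 0.16 for Tubb6. The interaction of age and genotype for Tubb4a without these mice was -0.19 (unadjusted p = 0.0146, adjusted p = 1, limma), where 3.8% of all tested genes had an unadjusted p under 0.05. With all mice, the interaction of the 10 isotypes lay between -0.13 and 0.09 on the log2 scale and none was called or had an unadjusted p under 0.05, where 0% of all tested genes were called and 1.68% had an unadjusted p under 0.05.

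**Figure D5:**
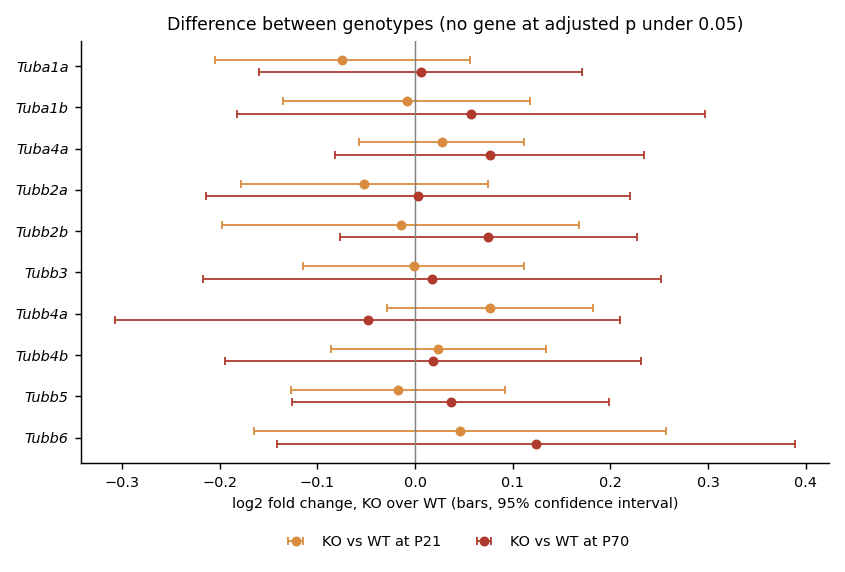
Log2 fold change of KO over WT (horizontal axis) for each isotype (vertical axis) at P21 (orange) and P70 (red), with 95% confidence intervals from limma (10 mice at each age). Every interval includes 0, and the P70 intervals are wider than the P21 intervals for all isotypes but Tubb2b.

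Genes that act on tubulin were examined next to the isotypes. None of the genes of the lists that follow was called between genotypes at either age, where 0% of all tested genes were called. With age, 11.1% of all tested genes were called in WT and 11.9% in KO mice. Of the other tubulin genes, 6 of 10 were in the table, and none of them was called with age. Tuba1c, the minor alpha gene, had a log2 fold change of -0.26 (adjusted p = 0.295) in WT and -0.15 (adjusted p = 0.586) in KO mice, and Tube1, the epsilon tubulin of centrioles, had -0.21 (adjusted p = 0.437) and -0.14 (adjusted p = 0.634). The gamma tubulins Tubg1 and Tubg2, which nucleate microtubules, had 916 to 1456 and 973 to 1748 normalized counts in P70 KO mice, the highest in replicate 5.

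Of 21 genes for the folding of tubulin (the prefoldin and CCT chaperones and the tubulin cofactors), 1 was lower and none higher with age in WT mice, and 2 were higher and 1 lower in KO mice. Of all tested genes, 5.62% were called lower and 5.53% higher in WT mice, and 6.4% and 5.47% in KO mice. An excess of the list over these shares was not tested. The prefoldin subunit Vbp1 was lower in WT mice (log2 fold change -0.30, adjusted p = 0.029) and had -0.19 (adjusted p = 0.177) in KO mice. The CCT subunits Cct4 (log2 fold change 0.24, adjusted p = 0.0254) and Cct7 (0.29, adjusted p = 0.0148) were higher in KO mice, and the cofactor-like gene Tbcel was lower (-0.26, adjusted p = 0.00838). In WT mice Cct4 had 0.20 (adjusted p = 0.0597), Cct7 0.20 (adjusted p = 0.101) and Tbcel -0.16 (adjusted p = 0.107). The median log2 fold change of this list was 0.03 in both genotypes.

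Of 16 genes for the nucleation of microtubules (gamma tubulin complex and augmin), none was called with age. Nedd1, which recruits the gamma tubulin complex, had -0.53 (adjusted p = 0.061) in WT and -0.46 (adjusted p = 0.105) in KO mice, and the augmin subunit Haus7 had 0.32 (adjusted p = 0.101) and 0.15 (adjusted p = 0.489). Of the 3 genes of tubulin mRNA autoregulation (Ttc5, Scaper and Cnot11), none was called. Cnot11, of the deadenylase complex, had -0.09 (adjusted p = 0.42) and 0.06 (adjusted p = 0.636). Scaper, which links Ttc5 to that complex, had -0.07 (adjusted p = 0.704) and -0.03 (adjusted p = 0.881).

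Within groups, most isotypes went up and down together from mouse to mouse, less so for some pairs without the P70 replicate 5 mice. With the group means subtracted, Pearson's r over the 20 mice was 0.919 between Tuba1a and Tubb2a, 0.968 between Tuba1b and Tubb4b and 0.943 between Tubb4b and Tubb5. Without the P70 replicate 5 mice (18 mice) these were 0.839, 0.892 and 0.879, while some other pairs were weaker. The r of Tuba4a with Tuba1b was 0.743 over 20 mice and 0.446 over 18, and with Tubb4a 0.726 and -0.0151. The r of Tubb2b was instead higher without the replicate 5 mice. With Tuba1a it was 0.471 over 20 mice and 0.878 over 18, and with Tubb2a 0.178 and 0.615. The r of Tubb4a with Tubb5 was 0.765 over 20 mice and 0.235 over 18. Tubb6 had r of 0.162 to 0.427 with the other isotypes over 20 mice. These values are a description, because the points of 1 mouse share a library, its depth and its GC content trend, and near-identical isotypes share reads.

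Of all tested genes, the one most alike in pattern, by Pearson's r over 20 mice with group means subtracted, was Tubb2a for Tuba1a (0.919), Tubb4b for Tubb5 (0.943), Tpi1 for Tuba1b (0.986), Calm3 for Tubb4b (0.972), Gpsm1 for Tubb4a (0.964), Chga for Tubb3 (0.956), Dctn5 for Tubb2a (0.926), H3f3a for Tubb2b (0.906), Med8 for Tuba4a (0.874) and Blnk for Tubb6 (0.864). Without the P70 replicate 5 mice, Blnk remained the most alike for Tubb6 (0.861, 18 mice), and for each of the other 9 isotypes another gene took that place.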

How the data were processed

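Poly-A RNA from whole brains of 20 mice was sequenced as paired ends. Per the labels and the study's methods, the authors estimated transcript abundance with Salmon 1.1.0 (GRCm38, GC bias corrected). They deposited normalized counts made, per the labels, with DESeq2 1.26.0 (R 3.6.2). The study's methods name other versions of DESeq2 and R. These deposited values are a normalized signal and not whole reads, so a count model was not applied. Gene symbols were taken from GENCODE M21 (19447 of 19463 identifiers), and no deposited column was left unassigned (0). Values were analysed as log2(value + 1) with limma 3.58.1 (R 4.3.3; lmFit, eBayes with trend) in genes whose mean was 10 or more, adjusted over all of them by Benjamini-Hochberg at a threshold of 0.05. Fold changes are on this log2(value + 1) scale. Genotypes were compared within each age (10 mice), and ages and the interaction in 1 fit of 4 group means (20 mice). Single genes were tested by exact permutation (scipy 1.17.1). The method was tested on simulated data, which held no outlying mouse and no trend with length or GC content. That test therefore does not bear on how such features move the calls. Lengths, GC content and sequences came from the GENCODE annotation. Some sequences are not reported here. The labels do not tie mice to litters, so p-values measure the spread between these mice. All 10 isotypes are named. Of each other tubulin list the 2 genes with the smallest p between ages in WT mice are named, and Tbcel, Cct7, Tubg1, Tubg2 and the single cell type markers were added after their values were seen. Isotypes and lists were chosen with earlier results of these data known. Alternatives were another pseudocount, filter, scaling, trend setting, length and GC correction, a replicate block, other sample sets and leaving out mice.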

Additional observations from a re-analysis of the deposited data

Results flagged for a closer look

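A mouse stood apart from its group, by Dixon's test at the 95% level, in 11 of 40 combinations of an isotype and a group. P70 KO replicate 5 was the highest mouse in 7 of them, with 33370 normalized counts for Tuba1a, 14830 for Tuba4a, 18900 for Tubb2a, 13620 for Tubb3, 32000 for Tubb4a, 9968 for Tubb4b and 14530 for Tubb5. P70 WT replicate 5 was the highest for Tubb3 (11660) and Tubb4b (8958). The others were P70 WT replicate 3, the lowest for Tuba4a (11290), and P21 WT replicate 3, the highest for Tubb4a (30910). The share of all tested genes that this test flags in these groups was not computed. The isotypes of a mouse are also not independent, so the 11 combinations are a description.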

How the results depend on the processing

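The falls of Tuba1a, Tubb2a and Tubb2b with age kept their direction and their call under every alternative run, with adjusted p up to 0.0026 when single mice were left out. No isotype was called between genotypes or in the interaction under any alternative. The number called lower with age was 3 in WT and 4 in KO mice, where 11.1% and 11.9% of all tested genes were called in either direction. It was 7 and 7 without both P70 mice of replicate 5 (21.1% and 22% of all tested genes), 7 and 6 after correction for length and GC content (17.9% and 18.6%), and again 7 and 6 when a replicate block was added to the correction (18.9% and 19.3%). Leaving out 1 mouse gave 3 to 6 in WT (7.86% to 16% of all tested genes) and 3 to 7 in KO mice (8.21% to 14.6%), both numbers highest without P70 KO replicate 5. That mouse enters the WT calls through the estimate of the spread that all groups share. The replicate numbers were not taken to pair the mice, because the labels do not say what they share and the deviations of same-numbered mice correlated above 0.1 in 12 of 30 pairs and not in all (range -0.165 to 0.705). They did so in 4 of 5 pairs of P70 WT with P70 KO mice and in all 6 pairs of replicate 4, and 10 of 20 mice correlated best with their own number. With the replicate block alone, 3 isotypes were called in WT and 4 in KO mice (13% and 13.7% of all tested genes), and no isotype call changed.

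Some uncalled log2 fold changes close to 0 changed sign, and the cause was not tested. Between genotypes at P70, quantile normalization gave -0.00217 for Tuba1a and -0.0147 for Tubb2a. The length and GC correction, with or without the replicate block, gave -0.0157 for Tuba1a, -0.0251 for Tubb2a, -0.0116 for Tubb3 and -0.00484 for Tubb4b. Without both P70 mice of replicate 5, they were -0.0375, -0.048, -0.0344 and -0.0151. The age difference of Tuba1b in KO mice was -0.0116 with quantile normalization, -0.0528 with the length and GC correction and -0.0869 without the replicate 5 mice. The interaction of Tubb4b was 0.00323 with quantile normalization and with equal sums, and those of Tuba4a and Tubb3 were -0.00939 and -0.0329 without the replicate 5 mice. Leaving out 1 mouse at a time gave, between genotypes at P21, Tuba1b -0.042 to 0.0294, Tubb2b -0.0794 to 0.0415, Tubb3 -0.0389 to 0.0255, Tubb4b -0.00546 to 0.0561, Tubb5 -0.0528 to 0.00201 and Tubb6 -0.00182 to 0.102. At P70 it gave Tuba1a -0.0597 to 0.032, Tuba1b -0.0366 to 0.121, Tubb2a -0.09 to 0.0466, Tubb3 -0.0853 to 0.068, Tubb4a -0.163 to 0.0025, Tubb4b -0.0661 to 0.0698 and Tubb5 -0.0241 to 0.062. With age in KO mice it gave Tuba1b -0.0869 to 0.0481 and Tuba4a -0.0736 to 0.0136, and for the interaction Tuba1b -0.0281 to 0.129, Tuba4a -0.0126 to 0.0746, Tubb2a -0.0379 to 0.0987, Tubb3 -0.0837 to 0.0695, Tubb4b -0.0899 to 0.0459, Tubb5 -0.00658 to 0.0892 and Tubb6 -0.00277 to 0.126.

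With the longest coding transcript as the length, 32 of 40 shares moved by more than the SD between mice (Tuba1a 59.5% in P21 WT and 50.6% in P70 WT mice). Reads per mouse could only be estimated from the spacing of low values, and no counting error is given.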

Other observations

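The summed level per kb of the 3 alpha isotypes over that of the 7 beta isotypes was 0.846 to 0.867 in P21 WT and 0.817 to 0.839 in P21 KO mice, with no overlap between genotypes (5 mice each). With the longest coding transcript as the length, the ranges were 0.841 to 0.861 and 0.815 to 0.835. At P70 the genotypes overlapped, with 0.817 to 0.895 in WT and 0.820 to 0.889 in KO mice. No test was made of this ratio, which was chosen after its values were seen.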
